A study of Mus musculus with 4 samples.

Results

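The genes described here are those that build ribosomes: the subunits of RNA polymerase I with the initiation factor Rrn3, and the nucleolar proteins that process ribosomal RNA and assemble the ribosomal subunits. They were chosen by symbol, as every gene whose probe sets carry a single symbol beginning with Nop, Utp, Rrp, Nol or Polr1, together with Imp3, Imp4, Fbl, Ncl, Npm1, Dkc1, Wdr12, Bop1, Pes1 and Rrn3. This gave 53 genes out of 13222 with a usable probe set. Expression was measured on 4 Mouse430_2 arrays in bone marrow-derived macrophages labelled MyD88-deficient (MyD88 -/-), differentiated over 6 days with recombinant human M-CSF. One group of 2 arrays came from cells treated for 120 min with 100 ug/ml of zymosan, a particle made of yeast cell walls, and the other group of 2 arrays came from unstimulated cells at 0 min, whose titles carry the names of other stimuli (LPS and PIC) although they are labelled untreated. Every sample carries the MyD88 -/- label, so these values hold no MyD88-sufficient comparison. The labels used here state no age, sex or background strain for the mice.

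In the nucleolus, RNA polymerase I is brought to the ribosomal RNA genes by Rrn3 and transcribes a long precursor. Small nucleolar ribonucleoproteins (snoRNPs) modify that precursor, either by 2'-O-methylation (box C/D particles, with the methyltransferase Fbl) or by pseudouridylation (box H/ACA particles, with the synthase Dkc1). The small subunit processome, which holds most of the Utp proteins, folds and cleaves the part that becomes the 40S subunit, and a separate set of factors, among them the Pes1-Bop1-Wdr12 complex, assembles the 60S subunit. Ribosome production is known to rise in growing and activated cells, and the transcription factor Myc, which binds the E-box, is a known activator of many of these genes.

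Each value is a log2 expression value of a probe set, from the authors' RMA, and differences are zymosan minus unstimulated on that scale. Where a gene has several probe sets, the one with the highest mean stands for it. A difference was called when limma's test gave an adjusted p under 0.05 over all 13222 genes, and SE is the moderated standard error from that fit. All 53 genes passed the filter on low values, and none lay below the filter level (4.36 to 4.39) on any array, with a lowest value of 4.92. The zymosan arrays correlated at r = 0.995 over probe sets, the unstimulated arrays at r = 0.989, and arrays of different groups at 0.964 to 0.969. Both zymosan arrays were hybridised on the same day and the unstimulated arrays on 2 other days, with another operator and project, so for every value given here day and stimulus cannot be told apart. No label states that arrays of 1 group came from separate cultures or mice. The p-values therefore set the difference between groups only against the spread of arrays within a group, which may be technical. The Myd88 probe set was at 8.37 and 8.40 on the zymosan arrays, against 8.72 and 8.78 on the unstimulated arrays, above the filter level on all 4 although every sample is labelled deficient. Its difference was -0.37 (SE 0.10, adjusted p = 0.0506 by limma). The sources used here do not place its probes relative to the deletion, so this level cannot check the label.

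The promoters of 5 genes that changed are shown, since the results below return to Rrn3, Utp20, Utp4, Nolc1 and Dkc1. They run from 250 bases before to 50 bases after the annotated start, 5' to 3' on the gene's own strand, from RefSeq on GRCm38.p6. Capitals mark the E-box CACGTG and the ETS core CCGGAAG on either strand. In the Dkc1 window neither was found, so it has no capitals.
Rrn3, chr16:13780449-13780748, plus strand: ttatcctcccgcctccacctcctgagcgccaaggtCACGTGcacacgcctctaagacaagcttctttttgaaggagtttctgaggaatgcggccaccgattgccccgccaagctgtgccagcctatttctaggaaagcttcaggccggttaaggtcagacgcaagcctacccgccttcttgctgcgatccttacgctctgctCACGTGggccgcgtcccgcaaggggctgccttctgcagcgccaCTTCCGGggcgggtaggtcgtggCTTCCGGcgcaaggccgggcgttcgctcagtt
Utp20, chr10:88826765-88827064, minus strand: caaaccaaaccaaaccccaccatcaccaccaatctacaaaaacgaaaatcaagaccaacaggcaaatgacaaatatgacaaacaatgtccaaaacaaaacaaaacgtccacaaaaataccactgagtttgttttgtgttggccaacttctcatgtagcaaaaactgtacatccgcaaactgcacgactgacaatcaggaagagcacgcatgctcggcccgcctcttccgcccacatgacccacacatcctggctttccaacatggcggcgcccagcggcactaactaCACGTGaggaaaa
Utp4, chr8:106893390-106893689, plus strand: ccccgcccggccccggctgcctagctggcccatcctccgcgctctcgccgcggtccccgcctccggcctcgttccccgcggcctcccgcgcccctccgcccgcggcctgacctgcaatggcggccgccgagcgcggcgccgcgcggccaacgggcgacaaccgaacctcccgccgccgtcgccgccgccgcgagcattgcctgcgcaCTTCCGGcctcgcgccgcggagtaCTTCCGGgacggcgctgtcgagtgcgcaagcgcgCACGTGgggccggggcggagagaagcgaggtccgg
Nolc1, chr19:46075597-46075896, plus strand: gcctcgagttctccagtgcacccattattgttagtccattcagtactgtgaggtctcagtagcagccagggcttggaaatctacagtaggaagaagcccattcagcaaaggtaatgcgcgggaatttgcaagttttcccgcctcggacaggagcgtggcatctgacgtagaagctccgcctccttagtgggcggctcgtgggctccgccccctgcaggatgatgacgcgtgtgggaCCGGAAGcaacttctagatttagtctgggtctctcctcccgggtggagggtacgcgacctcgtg
Dkc1, chrX:75095604-75095903, plus strand: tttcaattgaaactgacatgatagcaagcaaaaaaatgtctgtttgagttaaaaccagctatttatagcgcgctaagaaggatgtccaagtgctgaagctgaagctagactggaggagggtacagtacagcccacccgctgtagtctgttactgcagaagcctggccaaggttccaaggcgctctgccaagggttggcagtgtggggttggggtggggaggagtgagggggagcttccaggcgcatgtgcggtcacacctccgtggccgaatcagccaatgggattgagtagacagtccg

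Of the 53 genes, 7 rose, 3 fell and 43 did not pass the test. The genes that rose were Rrp12, Utp20, Utp4, Rrn3, Nol8, Nolc1 and Utp25, and those that fell were Dkc1, Nop53 and Utp3. The share called higher was 13.2% against a background of 10.1% of all genes, and the share called lower was 5.66% against 6.73%, so neither stood far from the background (both directions together, 10 of 53 against 16.8% of all genes). The differences were small: 46 of the 53 were below 0.5 on the log2 scale in either direction, and only that of Rrp12 was above 1. Their median was 0.11, against 0.00 over all genes, and 39 of 53 (73.6%) were positive, against 50.7% of all genes. In 26 of the 53 (49.1%, background 32.4%) both zymosan arrays lay above both unstimulated arrays, and in 8 (15.1%, background 28.2%) both lay below. The median moved to 0.16 without unstimulated replicate 1 and to 0.06 without unstimulated replicate 2.

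**Figure D1:**
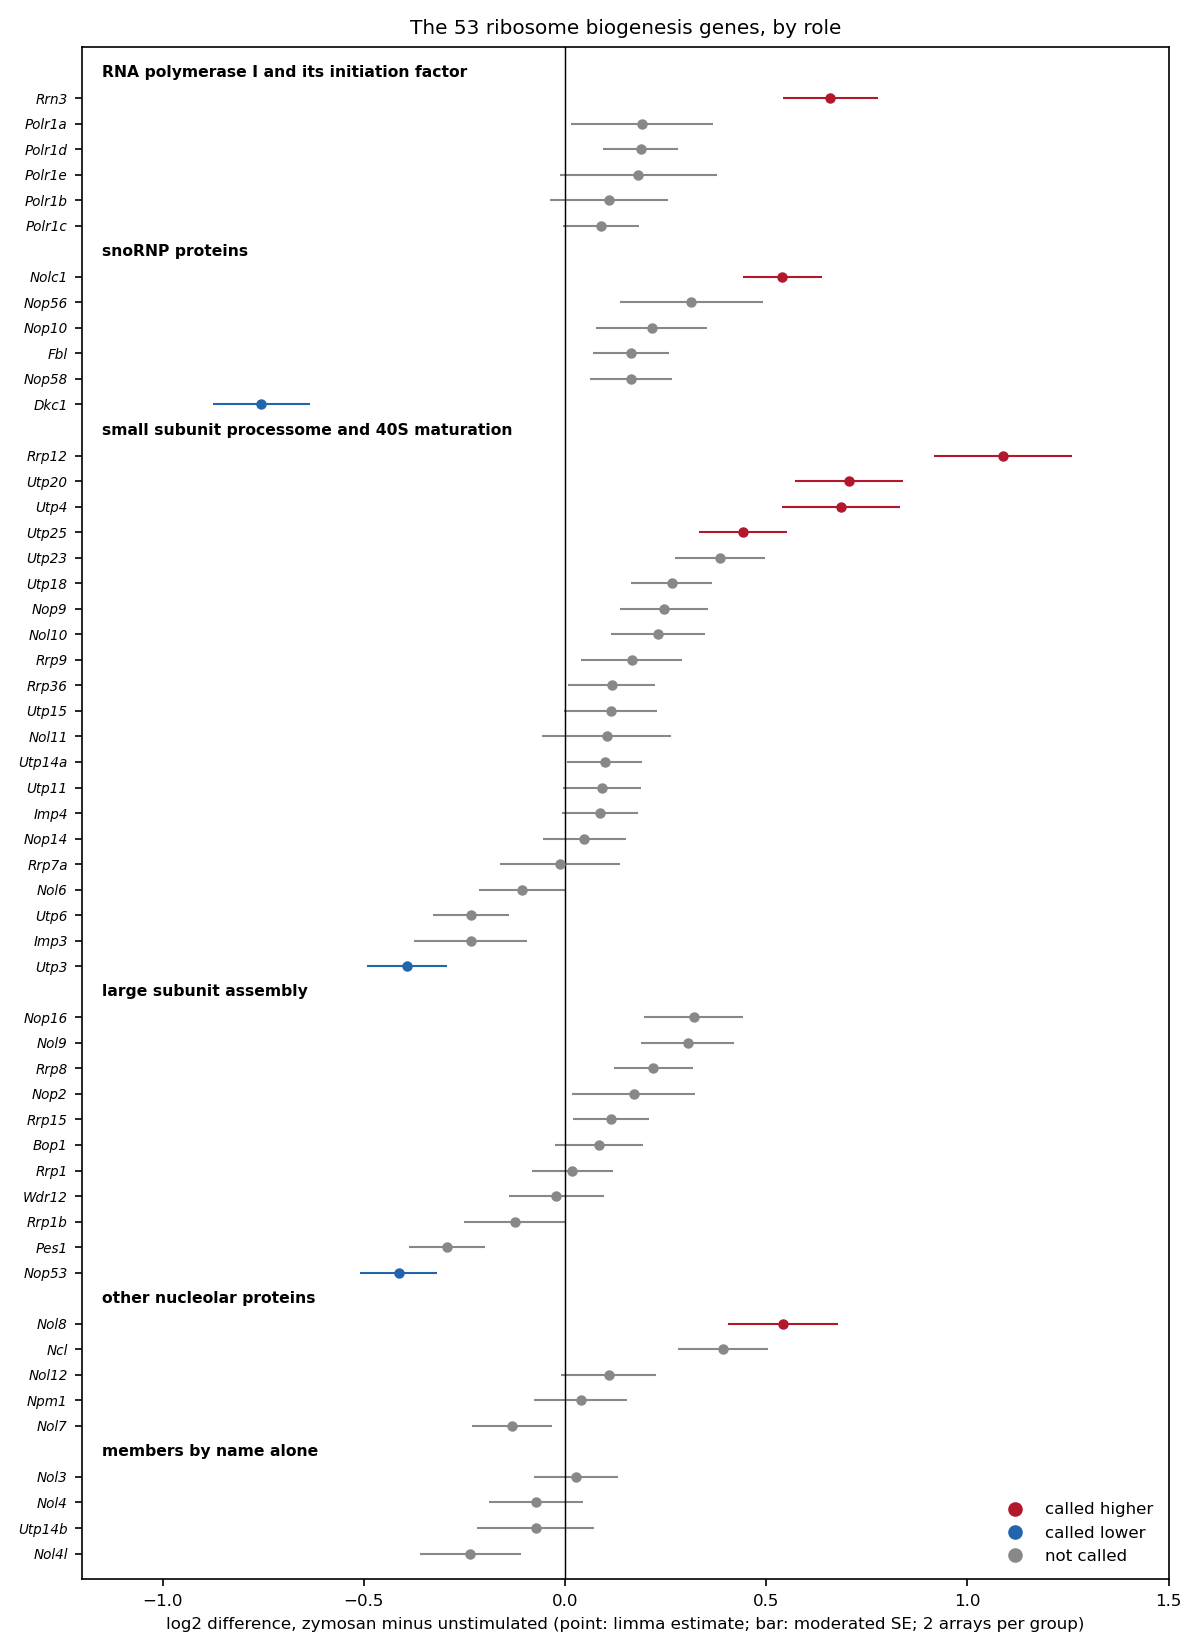
Log2 difference (zymosan minus unstimulated) of each of the 53 genes, grouped by role, with limma's estimate as a point and its moderated SE as a bar (2 arrays per group). The 7 genes called higher and 3 called lower are coloured, and 43 grey points were not called.

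**Figure D2:**
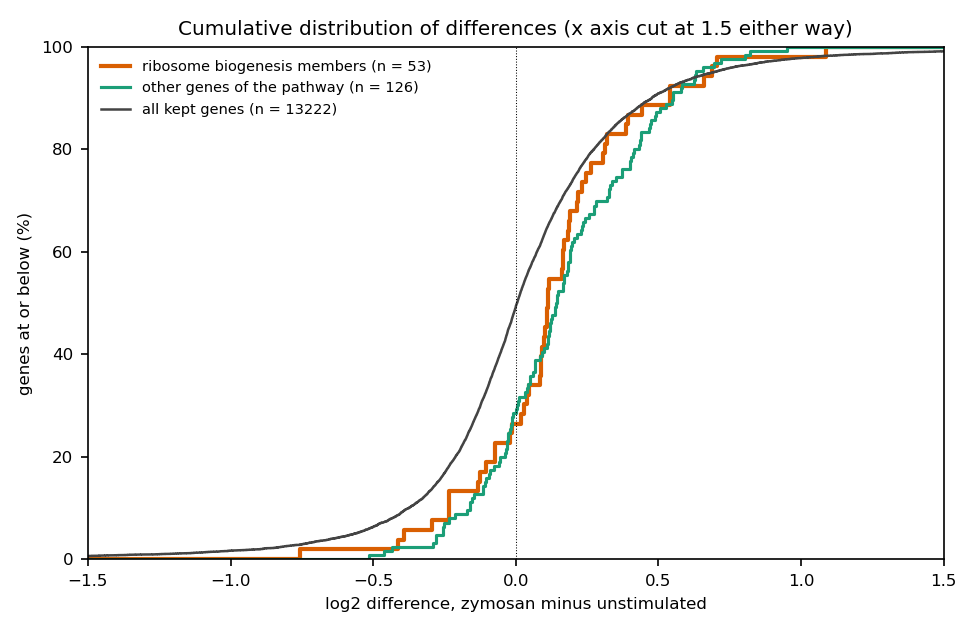
Cumulative share of genes (percent) by log2 difference (zymosan minus unstimulated) for the 53 genes, the other 126 genes of the pathway lists and all 13222 kept genes. The curve of the 53 genes crosses its middle at 0.11 and that of all genes at 0.00, and the upper ends of the curves run close together.

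The calls among the 53 genes depended on which arrays were kept. For the refits here and below, the share called over all genes is not given, so their counts have no background beside them. With either zymosan array left out, limma called 0 of the 53 genes in each direction. At an unadjusted p under 0.05, 10 were then higher with zymosan replicate 1 left out and 5 with zymosan replicate 2 left out, and 3 were lower each time. Without unstimulated replicate 1, 11 were called higher and 2 lower. With the hybridisation day as a random block, Rrp12 alone was called higher and Dkc1 alone lower.

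Of the 6 genes for RNA polymerase I among the 53, 1 was called higher (16.7%, against 10.1% of all genes) and none lower (against 6.73%). That gene was the initiation factor Rrn3, and the 5 subunits were not called. A difference between the factor and the subunits was not tested. Rrn3, which joins the polymerase to the promoter-bound factors, was at 7.86 and 7.93 on the zymosan arrays, against 7.12 and 7.36 on the unstimulated arrays. The groups did not overlap, and the gap between them was larger than the gap inside either. This is a 1.58-fold increase (log2 difference 0.66, SE 0.12, limma adjusted p = 0.0178). Its promoter, shown above, holds the E-box at 2 places.

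At the probe sets of highest mean, the 5 polymerase subunits differed by 0.09 to 0.19. Polr1a, the largest catalytic subunit, was at 7.24 and 7.20 on the zymosan arrays, against 7.29 and 6.77 on the unstimulated arrays, so the zymosan values lay inside the unstimulated range. The other kept probe sets of Polr1a differed by -0.54, which was called lower (adjusted p = 0.0296 by limma over probe sets), and -0.26, which was not called. Polr1b, the second-largest subunit, likewise overlapped (6.66 and 6.67, against 6.36 and 6.75). Polr1d, a subunit shared with RNA polymerase III, was at 10.76 and 10.74, against 10.56 and 10.56, and did not pass the test (0.19, SE 0.09, limma adjusted p = 0.230). Polr1e and Polr1c, a second shared subunit, differed by 0.18 and 0.09. Polr1e was the gene whose unstimulated arrays lay farthest apart, by 0.58.

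In bulk RNA, fewer cells of a type and less RNA per cell cannot be told apart, here and in each result that follows. The snoRNP proteins split between a chaperone that rose and a synthase that fell at the probe set that represents it. Nolc1 (Nopp140), which carries snoRNPs between Cajal bodies and the nucleolus, was at 8.32 and 8.38 with zymosan, against 7.78 and 7.84 unstimulated. It rose 1.45-fold (log2 difference 0.54, SE 0.10, limma adjusted p = 0.0183). Its other kept probe sets differed by 0.57, which was called, and -0.14, which was not, and the gene was called under 8 of the 13 alternatives tried, the mean of its probe sets not among them. Dkc1 (dyskerin), the pseudouridine synthase of box H/ACA particles and a part of telomerase, was at 6.72 and 6.87 with zymosan, against 7.45 and 7.66 unstimulated. It fell 1.69-fold at this probe set (log2 difference -0.76, SE 0.12, limma adjusted p = 0.0128). The remaining kept probe sets of Dkc1 differed by -0.05 and -0.03 and were not called, so the decrease was read by 1 of its 3 probe sets.

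The other 4 snoRNP proteins among the 53, all of the particles' cores, did not pass the test. Fbl, the box C/D methyltransferase, was at 10.27 and 10.30 with zymosan, against 10.13 and 10.10 unstimulated (0.16, SE 0.09, limma adjusted p = 0.291). Its partners Nop58 and Nop56 differed by 0.16 and 0.31, and Nop10, a small box H/ACA protein, by 0.21. In each of these 4 genes the zymosan arrays lay above the unstimulated ones, as they did in 32.4% of all genes.

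The small subunit processome and 40S maturation account for 21 of the 53 genes. Of these 4 rose (19.0%, against 10.1% of all genes), 1 fell (4.76%, against 6.73%) and 16 were not called, with a median of 0.11. The roles were assigned with the values known, so this count is a description. Rrp12, which in yeast helps mature and export the pre-40S particle, was at 6.64 and 6.82 with zymosan, against 5.87 and 5.41 unstimulated. Its unstimulated arrays were 0.46 apart, which is less than the gap between the groups. It rose 2.13-fold, more than any other of the 53 genes (log2 difference 1.09, SE 0.17, limma adjusted p = 0.0125).

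Utp20, a large scaffold protein of the processome, was at 8.36 and 8.41 with zymosan, against 7.84 and 7.51 unstimulated, a 1.63-fold increase (SE 0.13 on the log2 scale, limma adjusted p = 0.0214). Utp4 (cirhin), of the subcomplex that joins the precursor first, was at 8.84 and 8.63, against 8.21 and 7.88, a 1.61-fold increase (SE 0.15, limma adjusted p = 0.0301). Both had a single kept probe set, as did Rrp12 and Rrn3. In Utp20, Utp4 and Rrp12, unstimulated replicate 1 was the closer of its pair to the zymosan arrays. The promoters of Utp20 and Utp4, shown above, hold the E-box once each, within the bases after the start.

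Utp25 was closer to the threshold. It was at 6.88 and 7.002 with zymosan, against 6.58 and 6.42 unstimulated, and rose 1.36-fold (SE 0.11, limma adjusted p = 0.0451). The other kept probe set of Utp25 differed by -0.12 and was not called, and the gene was called under 4 of the 13 alternatives. Utp3 (Sas10) went the other way, at 9.34 and 9.35 with zymosan, against 9.79 and 9.68 unstimulated. It fell 1.31-fold (log2 difference -0.39, SE 0.10, limma adjusted p = 0.0469), and was called under 5 of the 13. In the fit over all probe sets, those that represent Utp25 and Utp3 were not called (adjusted p = 0.0587 and 0.0624 by limma).

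The other processome genes ran from 0.39 (Utp23) to -0.24 (Imp3). Utp23 missed the threshold (SE 0.11, limma adjusted p = 0.0675), with 7.38 and 7.54 in zymosan arrays and 7.15 and 7.01 in unstimulated arrays. All 4 of its kept probe sets lay between 0.31 and 0.48. Imp3 and Utp6, both processome proteins, differed by -0.24 and -0.23 without overlap between groups, and neither was called. Utp6 differed by 0.04 and -0.01 at its other kept probe sets, with overlap. Imp4, a partner of Imp3, differed by 0.09 at the probe set that represents it, and another of its probe sets was called higher at 0.61 (adjusted p = 0.0405 by limma over probe sets). Utp18, Nop9, Nol10, Rrp36, Utp14a and Utp11 had non-overlapping groups with zymosan higher, by 0.09 to 0.26. Utp11 differed by -0.21 without overlap at its other kept probe set, which was not called. Rrp9, Utp15, Nol11, Nop14, Rrp7a and Nol6 overlapped at the probe sets that represent them. Without overlap, zymosan was higher in 12 of the 21 genes (57.1%, against 32.4% of all genes) and lower in 3 (14.3%, against 28.2%).

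Of the 11 genes of large subunit assembly, none rose (against 10.1% of all genes), 1 fell (9.09%, against 6.73%) and 10 were not called, with a median of 0.08. At an unadjusted p under 0.05, 2 were higher and 2 lower by limma, against 2450 and 1841 of all 13222 genes. Nop53, which in yeast brings the exosome's helicase to the pre-60S particle, was at 9.65 and 9.70 with zymosan, against 10.10 and 10.07 unstimulated. It fell 1.33-fold (log2 difference -0.41, SE 0.10, limma adjusted p = 0.0367), and its other kept probe sets differed in the same direction, by -0.35 and -0.27, without being called.

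None of the genes of the Pes1-Bop1-Wdr12 complex was called. Pes1 was at 8.57 and 8.57 with zymosan, against 8.89 and 8.84 unstimulated, a difference of -0.29 (SE 0.09, limma adjusted p = 0.0895). Bop1 differed by 0.08 and Wdr12 by -0.02, both with overlapping groups. The other kept probe set of Wdr12 differed by -0.39 without overlap, and that of Pes1 by 0.08, and neither was called. The positive end held Nop16 (0.32), Nol9, a polynucleotide kinase of the precursor (0.31), and Rrp8, which methylates the 28S RNA (0.22), none of which was called. Nol9 went the other way at its remaining kept probe sets, by -0.52 and -0.19 without overlap between groups, and neither was called. Nop2, another 28S methyltransferase, differed by 0.17 with overlapping groups. Rrp15 and Rrp1b differed by 0.11 and -0.12. Rrp1 differed by 0.02 at its representative probe set and fell at its other one, by 0.64 on the log2 scale (adjusted p = 0.0206 by limma over probe sets).

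Nucleolin and nucleophosmin, abundant nucleolar proteins, were not called. Ncl (nucleolin) was at 11.68 and 11.75 with zymosan, against 11.42 and 11.22 unstimulated, without overlap, 1.31-fold higher without passing the test (log2 difference 0.39, SE 0.11, limma adjusted p = 0.0641). It is read by 5 kept probe sets whose differences ran from -0.17 to 0.56, with the highest called (adjusted p = 0.0458 by limma over probe sets). Npm1 (nucleophosmin) was at 11.48 and 11.71, against 11.54 and 11.57, so its groups overlapped.

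Nol8, a nucleolar protein, was at 6.46 and 6.76 with zymosan, against 5.99 and 6.15 unstimulated, and rose 1.45-fold (SE 0.14 on the log2 scale, limma adjusted p = 0.0465). The other kept probe sets of Nol8 differed by 0.85, which was called, and 0.06, which was not. In that fit over probe sets the one that stands for the gene was not called (adjusted p = 0.0584 by limma), and the gene was called under 7 of the 13 alternatives. Nol7 and Nol12 differed by -0.13 and 0.11. The remaining genes, Nol3, Nol4, Nol4l and Utp14b, were grouped apart from the roles above. Nol3 encodes an apoptosis repressor. Utp14b is a retrogene copy of Utp14a, so the probes of that pair may share signal. None of these 4 was called, and they differed by -0.24 to 0.03.

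**Figure D3:**
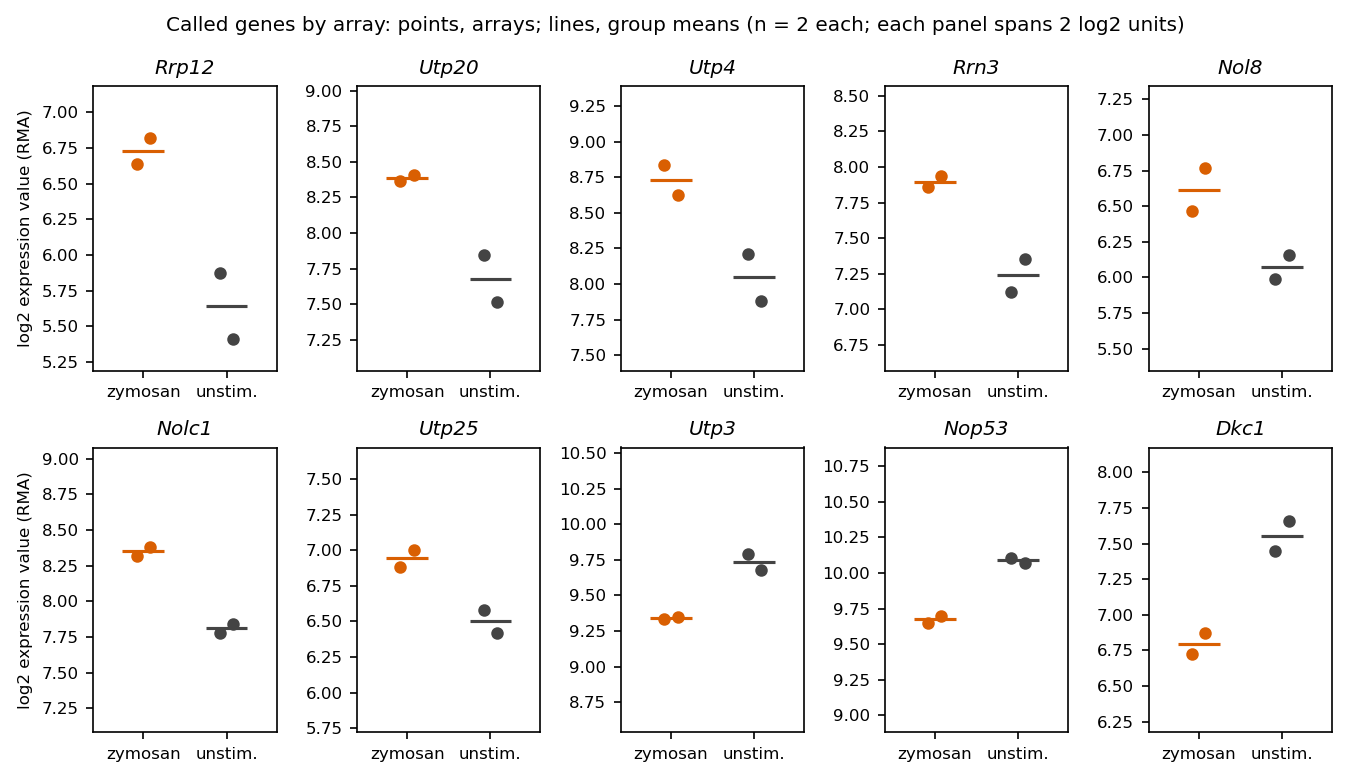
Log2 expression value (RMA) of the 10 called genes on each of the 4 arrays, with the zymosan arrays on the left, the unstimulated arrays on the right and a line at each group mean. In all 10, which were picked by adjusted p on these same arrays, the groups do not overlap. Rrp12 has the largest difference of group means, 1.09.

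Probe sets of the same gene often read differently. The 53 genes have 119 probe sets, of which 106 passed the filter, and 31 genes had more than 1. In 15 of these 31 all probe sets had differences of the same sign. Of the 106, limma called 9 higher and 4 lower over all probe sets, against backgrounds of 8.48% and 7.45%. No gene had a probe set called higher and another called lower. Imp4 and Ncl had a probe set called higher, and Polr1a and Rrp1 had one called lower, although the gene itself was not called. Conversely, Utp25 and Utp3 were called as genes, although none of their kept probe sets was called in this fit. For Polr1a that probe set was at 5.62 and 5.59 with zymosan, against 6.07 and 6.22 unstimulated, and it fell by 0.54 on the log2 scale (adjusted p = 0.0296 by limma), while the one that represents the gene differed by 0.19.

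**Figure D4:**
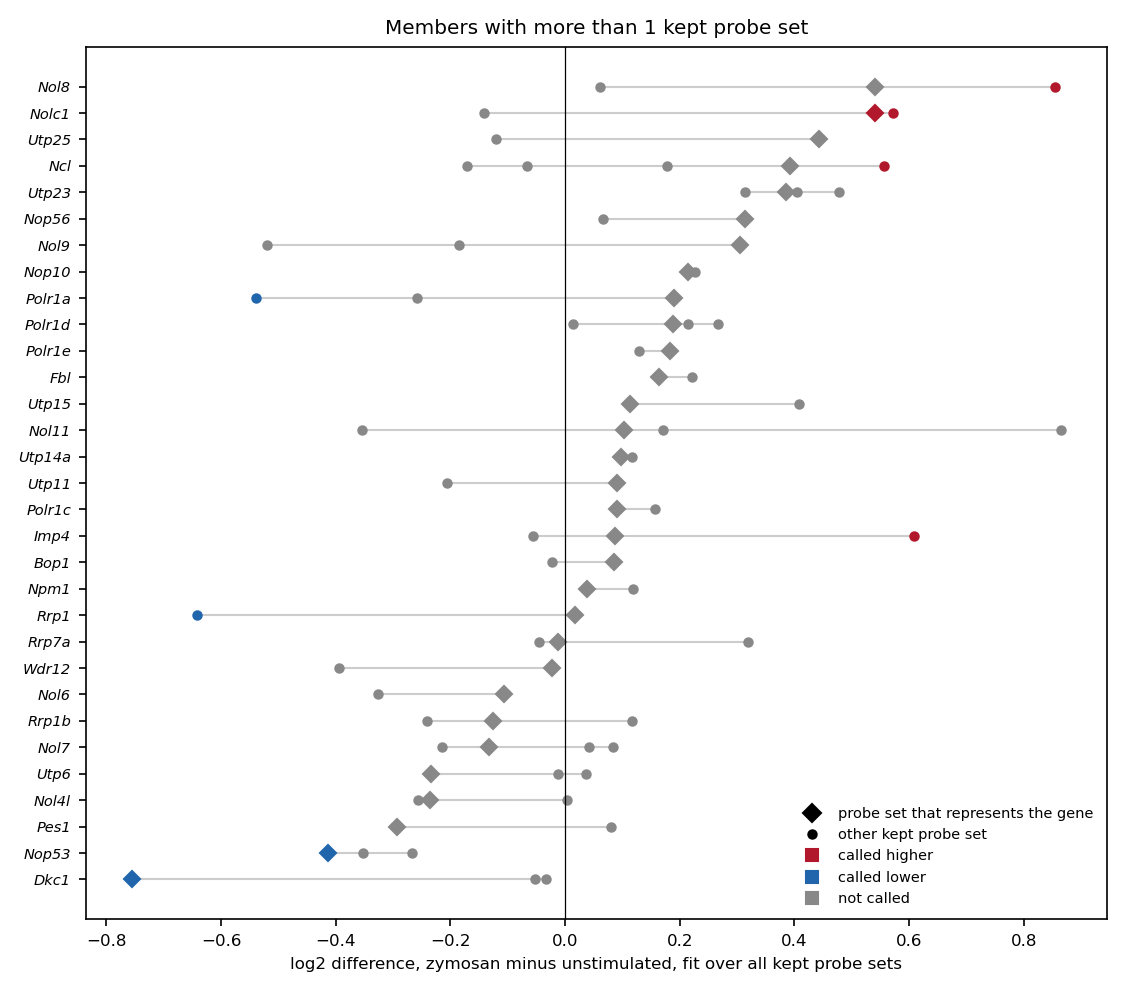
Log2 difference (zymosan minus unstimulated) at every kept probe set of the 31 genes with more than 1, from limma over all kept probe sets, with a diamond for the probe set that represents the gene. In Dkc1 the representative is at -0.76 and the others at -0.05 and -0.03, and in Rrp1 they are at 0.02 and -0.64.

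The rest of the pathway was read from 7 lists of genes written by role, with the 53 genes left out. These lists were chosen with earlier results of these data known, so their counts, here and below, are a description. Of 126 genes measured, 20 rose and 2 fell. The share called higher was 15.9% against a background of 10.1%, and the share called lower 1.59% against 6.73%, with a median of 0.14. In the same genes, unstimulated replicate 1 was above unstimulated replicate 2 in 99 of 126, against 57.5% of all genes and 30 of the 53. The part of this spread within the unstimulated pair in the counts was not tested. Without unstimulated replicate 1, 34 were called higher, and without zymosan replicate 1 or 2, limma called 0 in each direction, where 23 had an unadjusted p under 0.05 upward each time. With the hybridisation day as a random block 5 were higher.

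Of 10 further genes of the snoRNP core and its assembly, 5 rose (50%, against 10.1% of all genes), with a median of 0.45. No gene of this list was called lower, but Dkc1, the core gene that fell, is among the 53 and so was left out of it. Nhp2, a core box H/ACA protein that partners Dkc1 and Nop10, was at 11.16 and 11.28 with zymosan, against 10.50 and 10.31 unstimulated. It rose 1.77-fold (log2 difference 0.82, SE 0.11, limma adjusted p = 0.00894). Ruvbl1, an ATPase of the snoRNP assembly machinery, rose by 0.62 and Shq1, a chaperone of dyskerin, by 0.58 (limma). Gar1, the fourth box H/ACA protein, differed by 0.33 (limma adjusted p = 0.104), and Tcof1, which works with Nolc1, by 0.07.

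For the start and end of ribosomal RNA transcription, 1 of 6 factors rose (16.7%, against 10.1% of all genes). Ttf1, which binds the terminator of RNA polymerase I, was at 7.63 and 7.39 with zymosan, against 6.57 and 6.84 unstimulated (log2 difference 0.80, SE 0.14, limma adjusted p = 0.0163). Its other kept probe sets differed by 0.14 and 0.05. Ubtf, the upstream binding factor, was at 8.68 and 8.62, against 8.79 and 8.83 (-0.16, limma adjusted p = 0.306), and Taf1b and Taf1c of the promoter selectivity factor differed by -0.03 and -0.25. Of 6 further or shared polymerase subunits 1 was called, higher (16.7%, against 10.1% of all genes). It was Znrd1, now named Polr1h and itself a subunit of RNA polymerase I, which rose by 0.40. Cd3eap, now named Polr1g, differed by -0.09 and was not called. Of 9 RNA polymerase III subunits, Polr3g alone was called, higher by 0.63 (11.1%, near the 10.1% of all genes).

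In the list of other small subunit factors 7 of 36 rose (19.4%, against 10.1% of all genes) and none was called lower, with a median of 0.19. The lowest difference among them was -0.15. Heatr1, the counterpart of yeast Utp10, was at 8.91 and 8.85 with zymosan, against 8.27 and 8.05 unstimulated, and rose 1.65-fold (limma adjusted p = 0.0130). Rcl1 rose by 0.53. The helicase Dhx37, counted among the 7, was below the filter level on both unstimulated arrays, so it was kept only through the zymosan arrays. Against that level it was at least 1.28-fold higher. Bysl differed by 0.32 without passing the test.

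In the list of other large subunit factors 5 of 46 rose (10.9%, near the 10.1% of all genes) and 2 fell (4.35%, against 6.73%), with a median of 0.11. Rrs1, which in yeast brings the 5S particle to the pre-60S, rose by 0.95 on the log2 scale, the largest difference of the 126 genes (SE 0.13, limma adjusted p = 0.00894). Lyar and Sbds, which helps release Eif6 from the late 60S particle, rose by 0.55 each, while Ddx24 fell by 0.46 and Nsa2 by 0.44. Gnl3 (nucleostemin) differed by 0.35 (limma adjusted p = 0.0565), Ddx21 by 0.41, Eif6 by 0.20 and the export adaptor Nmd3 by -0.29, none of them called. Of 13 exosome genes none was called, where 10.1% of all genes were called higher and 6.73% lower. At an unadjusted p under 0.05 limma had 3 exosome genes higher and 1 lower, against 2450 and 1841 of all 13222 genes.

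**Figure D5:**
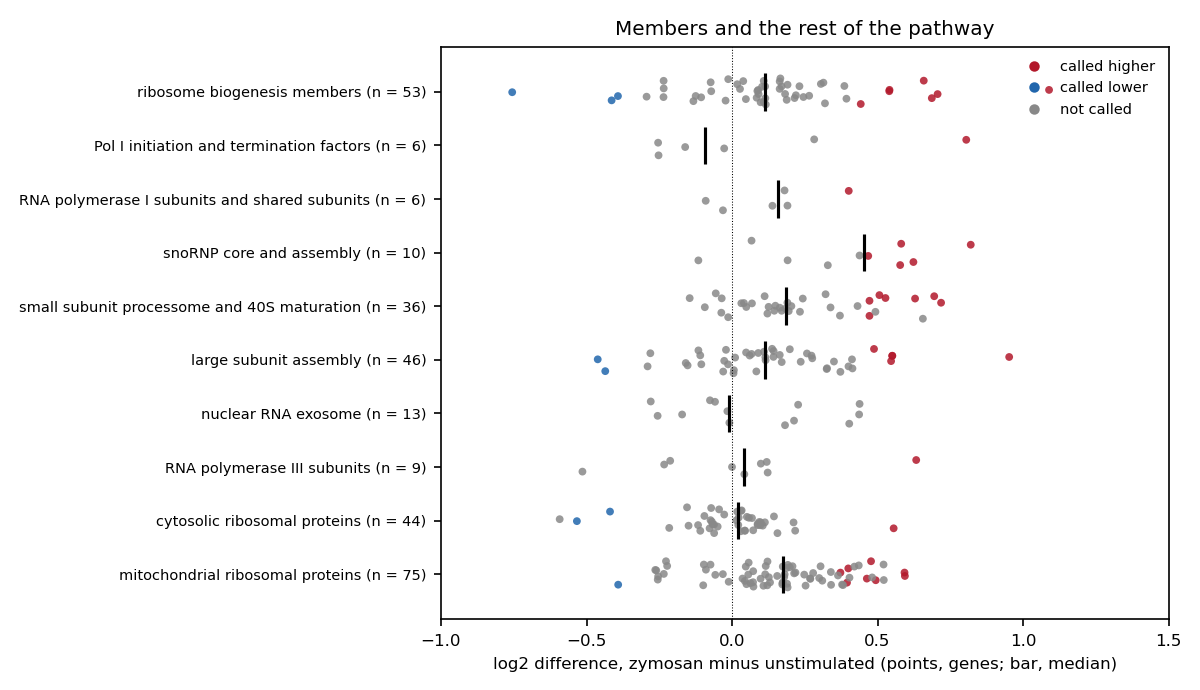
Log2 differences (zymosan minus unstimulated) of the 53 genes, the 7 pathway lists without them, and the cytosolic and mitochondrial ribosomal proteins, with a point per gene and a bar at the median. The snoRNP assembly list has the highest median, 0.45, and the cytosolic ribosomal proteins lie at 0.02.

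The proteins of the ribosome itself were set beside these genes by symbol. Of 44 cytosolic ribosomal proteins, 1 rose (2.27%, against 10.1% of all genes) and 2 fell (4.55%, against 6.73%), with a median of 0.02. They are those of 46 on the array that passed the filter, and ribosomal protein genes have many processed copies whose signal probes may share. Of 75 mitochondrial ribosomal proteins, 8 rose (10.7%, near the 10.1% of all genes) and 1 fell (1.33%, against 6.73%), with a median of 0.17. Among 19 cell cycle genes, 5 rose (26.3%, against 10.1% of all genes) and 1 fell (5.26%, against 6.73%), with a median of 0.23. The differences between these lists and the 53 genes were not tested.

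Of the Myc network, Myc overlapped between groups, at 7.83 and 7.78 with zymosan, against 7.17 and 7.88 unstimulated. Mxd1, a repressor that competes with Myc, rose 1.95-fold (limma adjusted p = 0.00477), while 2 further probe sets of Mxd1 were not called. Max, the partner of both, fell 3.55-fold (limma adjusted p = 0.00497), at 6.00 and 6.21 with zymosan, against 7.64 and 8.22 unstimulated.

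The letters of the promoters were read for 42 of the 53 genes, those with an entry in the RefSeq table. A gene was counted when any of its promoters held the letters. The E-box CACGTG stood in 11 of the 42 (26.2%), against 11.3% of 10675 genes measured on the arrays and 8.09% of all genes in the table. It was found in 4 of the 6 genes that rose and have an entry (Rrn3, Utp20, Utp4 and Utp25), in 0 of the 2 that fell and in 7 of the 34 not called. The ETS core CCGGAAG stood in 31.0% of the 42, against 18.4% of the measured genes and 9.93% of all genes in the table. The GC box GGGCGG stood in 71.4%, against 64.7% and 38.2%, and the TATA box TATAAA in 11.9%, against 9.49% and 15.7%, so both lay near the measured genes. Both strands were searched in windows of 300 bases, and a match is a description of the letters only.

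Markers of other cell types moved with the groups, and their part in these results was not tested. All 5 measured granulocyte precursor genes (Mpo, Elane, Prtn3, Ctsg and Ms4a3) were called higher (100%, against 10.1% of all genes). Of these, Ms4a3 was below the filter level on both unstimulated arrays (3.89 and 4.03). It was kept only through the zymosan arrays (4.89 and 5.05). The mean log2 level over the list was 6.57 to 6.70 on the zymosan arrays, against 4.82 to 4.85 on the unstimulated arrays. Of 7 kept late neutrophil genes 6 rose (85.7%, against 10.1% of all genes), and Cxcr2 was below the filter level on every array. The mean over all 8 on the array was 7.97 to 8.04, against 6.30 to 6.44. Of 9 macrophage genes 6 fell (66.7%, against 6.73% of all genes), with a mean of 10.5 to 10.51 in zymosan arrays and 11.27 to 11.34 in unstimulated arrays. Of 5 kept progenitor genes 1 rose and 1 fell (20% each, against 10.1% and 6.73% of all genes). Myb was called higher, at 4.88 and 4.80 with zymosan, against 3.94 and 3.68 unstimulated. Both unstimulated values were below the filter level, so Myb was kept only through the zymosan arrays and the size of its rise is not given. Sox4 fell by 2.27 on the log2 scale. Over the 6 progenitor genes on the array the mean was 5.19 to 5.43, against 5.43 to 5.67. Of 5 B cell genes on the array 3 were kept, and Cd79b fell by 0.58 (limma adjusted p = 0.0143), with Ms4a1 and Vpreb1 below the filter level on all 4 arrays. Of 6 T and NK cell genes 2 were kept, among them Cd3e (-0.19, not called), and Cd3d, Cd3g, Ncr1 and Tcra were below it. Of 6 fibroblast genes Col1a2, Pdgfra and Dcn were kept and not called, and Col1a1, Col3a1 and Lum were below it.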

How the data were processed

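The authors deposited 1 log2 value for each probe set and array. The submitters' processing notes name RMA, and neither its version nor which arrays were normalized jointly is known here. The scanner's settings files, deposited beside them, hold other information (chip type, day, operator, project) and no expression value. Biotin-labelled cRNA came from 4 ug of total RNA, per the labels' protocols.

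After 64 controls were set aside, 45037 probe sets remained, of which 34945 had 1 symbol in the platform annotation, 932 several and 9160 none. A probe set was kept at or above the 40th percentile of its array in at least 2 arrays (27571), and each gene took its kept probe set of highest mean (13222). The number of arrays limits the precision. limma 3.58.1 in R 4.3.3 (lmFit, eBayes, 2-sided, Benjamini-Hochberg over all genes or probe sets) tested zymosan against unstimulated, and was tested on simulated data. An exact permutation test of 2 against 2 arrays cannot go below p = 0.333, so no such test is given. A pathway gene with every array of a group below the filter level is given as a fold against that level. A marker gene in that state is given by its array values. All 53 genes matched RefSeq by Entrez ID under the same symbol. No array column was left unused.

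Every one of the 53 genes could be named. From the other lists, the 3 genes of smallest p called in each direction and a fixed set of pathway genes could be named, among them Ubtf, Nhp2, Gnl3 and Myc. The members and lists were chosen with earlier results of these data known, and roles were assigned to the 53 genes after their values were seen. Alternatives were leaving out each array, other filters, scalings, probe set choices and variance models, a minimum fold, and the hybridisation day as a random block. limma's duplicateCorrelation gave no value with 4 arrays, so the block's correlation (0.50) was pooled over genes from the same-day and different-day pairs, a choice made after seeing the data.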

Additional observations from a re-analysis of the deposited data

How the results depend on the processing

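No paired analysis was possible because the labels give the groups no shared replicate numbers. Of the 53 genes, 7 were called higher and 3 lower, and 20 and 2 of the other 126 pathway genes. Leaving out 1 array at a time gave 0 to 11 higher and 0 to 3 lower of the 53, and 0 to 34 and 0 to 3 of the 126. Of the probe sets of the 53 genes, 9 were higher and 4 lower, and 0 to 10 and 0 to 4 when an array was left out. The lowest counts came without zymosan replicate 1 or 2, where the spread comes from the unstimulated pair alone and the lone zymosan array is assumed to vary like it, and the highest counts of higher genes came without unstimulated replicate 1.

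With the hybridisation day as a random block, added after seeing the data, 1 gene was higher and 1 lower of the 53, and 5 and 0 of the 126. With limma's treat at a minimum fold of 1.2, 1 was higher and 0 lower, and 2 and 0. By the mean of kept probe sets, 1 of the 53 was lower and 4 of the 126. By the probe set of largest variance 4 of the 126 were lower, and without a filter 1. Where limma called 0 of the 126 lower, 2 (day) and 0 (treat) had an unadjusted p under 0.05, and 1 of the 53 with treat. By the probe set of largest variance, Polr1a was called at -0.54 and Rrp1 at -0.64, a turn of direction from 0.19 and 0.02 that comes from reading another probe set. No gene called in the main analysis changed sign under any of the 13 alternatives, while 16 genes changed sign at least once. For the called genes this was largely fixed beforehand, since groups that do not overlap keep their sign when an array is left out. Nolc1 and Utp25 each had a probe set of opposite sign, at -0.14 and -0.12, that no alternative picked to stand for the gene. Ncl passed the threshold under 4 alternatives and Utp23 under 3. The cause of the other shifts was not tested.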
